A study of Caenorhabditis elegans with 2 samples.

Results

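The genes described here are 50 of the 19973 protein-coding genes on the nuclear chromosomes of Caenorhabditis elegans, chosen by their names: those starting cdk-, cya-, cyb-, cyd-, cye-, cki-, mcm-, orc-, psf- or cdc-, without the cdc-48 genes. They were set against peaks of UNC-130, a transcription factor of the forkhead class FoxD, found by chromatin immunoprecipitation and sequencing (ChIP-seq) in whole L1 larvae of mixed sex. The animals were of strain OP77, which carries the mutation unc-119(ed3) on chromosome III and the integrated insertion wgIs77, and in which the labels name an eGFP-unc-130 fusion as the target. The labels give 2 biological replicates of this single group and list no mutation of the endogenous unc-130 gene. They do not say in which cells the fusion was made. No control libraries were analysed here, so there is no contrast between conditions and no test is given. The name families were picked with peak positions of the deposited lists known, so the counts of members with a peak are a description and support nothing beyond themselves. In whole animals, a site held in few cells and a site held weakly in many cannot be told apart.

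A cell that divides must first copy its DNA. The origin recognition complex (ORC) and CDC-6 load a ring-shaped MCM helicase on chromatin, and the kinase CDC-7, the GINS complex (the psf genes) and MCM-10 help to activate it. Cyclins, the cyclin-dependent kinases CDK-1, CDK-2 and CDK-4, the CKI inhibitors and the CDC-25 phosphatases then drive and brake the passage through the cycle. Other kinases with the same prefix have roles elsewhere: CDK-7, CDK-8, CDK-9 and CDK-12 in transcription by RNA polymerase II, and CDK-5 in neurons. In C. elegans, most larval divisions come from blast cells that resume the cycle after hatching.

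The label covers more than the cell cycle. By role, 6 genes encode ORC subunits or CDC-6, 11 the helicase and its activation, 8 transcription and other kinases, 3 the division kinases, 8 cyclins, 2 inhibitors and 5 phosphatases. The last 7 fall in none of these roles. Among them, cdc-37 encodes a co-chaperone of Hsp90 and cdc-73 a subunit of the Paf1 complex, while mcm-3AP is not a subunit of the MCM ring. The gene cdc-26, for a subunit of the anaphase-promoting complex, does belong to the cell cycle.

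The sequences at several summits are shown first, because forkhead letters were more common at the members' summits than over the whole list. Each line gives the summit (the position of maximal signal given in the peak list) with 50 bases on either side, on ce11 and on the strand of the named gene, read from the RefSeq assembly WBcel235. Capitals mark TGTTTAC or TGTTTGC, forms of the forkhead site, and TTTCCCGC, TTTCGCGC, TTTGCCGC or TTTGGCGC, forms of the site of E2F factors, each searched on both strands. E2F is known in animals as a regulator of replication genes. The first 5, from ORC and MCM genes, all hold a match. A forkhead match lay at mcm-3, mcm-5, mcm-10 and orc-1, and an E2F match at mcm-3, mcm-5 and mcm-7. They do not stand for all replication genes: of the 15 replication summits, 5 had a forkhead match. The windows at mcm-2, orc-2 and orc-3, not shown, held neither form.
mcm-3, chrV:15059721-15059821, minus strand: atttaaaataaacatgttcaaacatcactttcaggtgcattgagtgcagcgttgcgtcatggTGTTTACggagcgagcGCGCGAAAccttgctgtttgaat
mcm-5, chrIII:4291424-4291524, minus strand: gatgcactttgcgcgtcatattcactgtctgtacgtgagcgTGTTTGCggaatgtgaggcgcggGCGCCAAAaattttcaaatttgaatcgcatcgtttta
mcm-10, chrIII:11317170-11317270, plus strand: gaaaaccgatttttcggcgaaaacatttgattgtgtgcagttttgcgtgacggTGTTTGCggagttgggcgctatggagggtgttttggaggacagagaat
orc-1, chrIII:10642927-10643027, plus strand: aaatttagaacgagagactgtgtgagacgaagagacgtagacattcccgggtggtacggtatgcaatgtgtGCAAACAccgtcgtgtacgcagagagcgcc
mcm-7, chrV:4346940-4347040, plus strand: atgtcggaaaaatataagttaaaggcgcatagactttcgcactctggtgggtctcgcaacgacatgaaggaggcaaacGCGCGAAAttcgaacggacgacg

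The paralogous kinase genes cdk-11.1 and cdk-11.2 had the same letters around their forkhead match, and the summit upstream of mcm-3AP had most of them too. The window shared by orc-5 and cyb-1 and the highest cdk-5 window are shown as examples of high peaks with no match.
cdk-11.1, chrII:7699160-7699260, plus strand: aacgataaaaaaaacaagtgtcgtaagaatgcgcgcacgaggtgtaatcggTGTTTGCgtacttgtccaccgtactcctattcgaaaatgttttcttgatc
cdk-11.2, chrX:10419879-10419979, minus strand: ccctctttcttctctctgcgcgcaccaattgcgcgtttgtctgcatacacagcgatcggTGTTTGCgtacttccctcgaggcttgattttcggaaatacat
mcm-3AP, chrIV:7947031-7947131, plus strand: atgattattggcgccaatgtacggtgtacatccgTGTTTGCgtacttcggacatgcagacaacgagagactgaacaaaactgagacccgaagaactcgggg
cyb-1, chrIV:10734677-10734777, plus strand: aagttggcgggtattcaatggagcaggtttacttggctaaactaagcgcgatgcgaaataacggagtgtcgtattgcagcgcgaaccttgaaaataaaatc
cdk-5, chrIII:13466357-13466457, minus strand: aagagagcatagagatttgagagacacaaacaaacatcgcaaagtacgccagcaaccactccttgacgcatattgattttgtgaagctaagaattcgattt

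Many genes of DNA replication and of the transcription kinases had UNC-130 peaks. The genes grouped here as division cycle genes had them about as often as all genes. In the optimal list (the 2631 peaks that passed the authors' reproducibility threshold), 24 of the 50 members (48%, 95% Wilson interval 34.8 to 61.5) had a summit within 2000 bp of their 5′ end. Over all protein-coding genes the share was 15.4%. The interval treats genes as the counted units, although orc-5 and cyb-1 share 1 summit. Because the families were picked with peak positions known, it is no test against the share of all genes. Of the 17 replication genes, 14 had such a summit, as did 6 of the 8 transcription and other kinase genes. Of the 17 genes for division kinases, cyclins, inhibitors and CDC-25 phosphatases, 2 had one, cyb-1 and cye-1. That is 11.8%, near the share of all protein-coding genes. The remaining 8 members held 2, cdc-14 and mcm-3AP. This division into 4 groups was made after the values were seen. It left cdk-7, which also activates other CDKs, and cdc-14 out of the division cycle group, and both had an optimal summit.

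**Figure D1:**
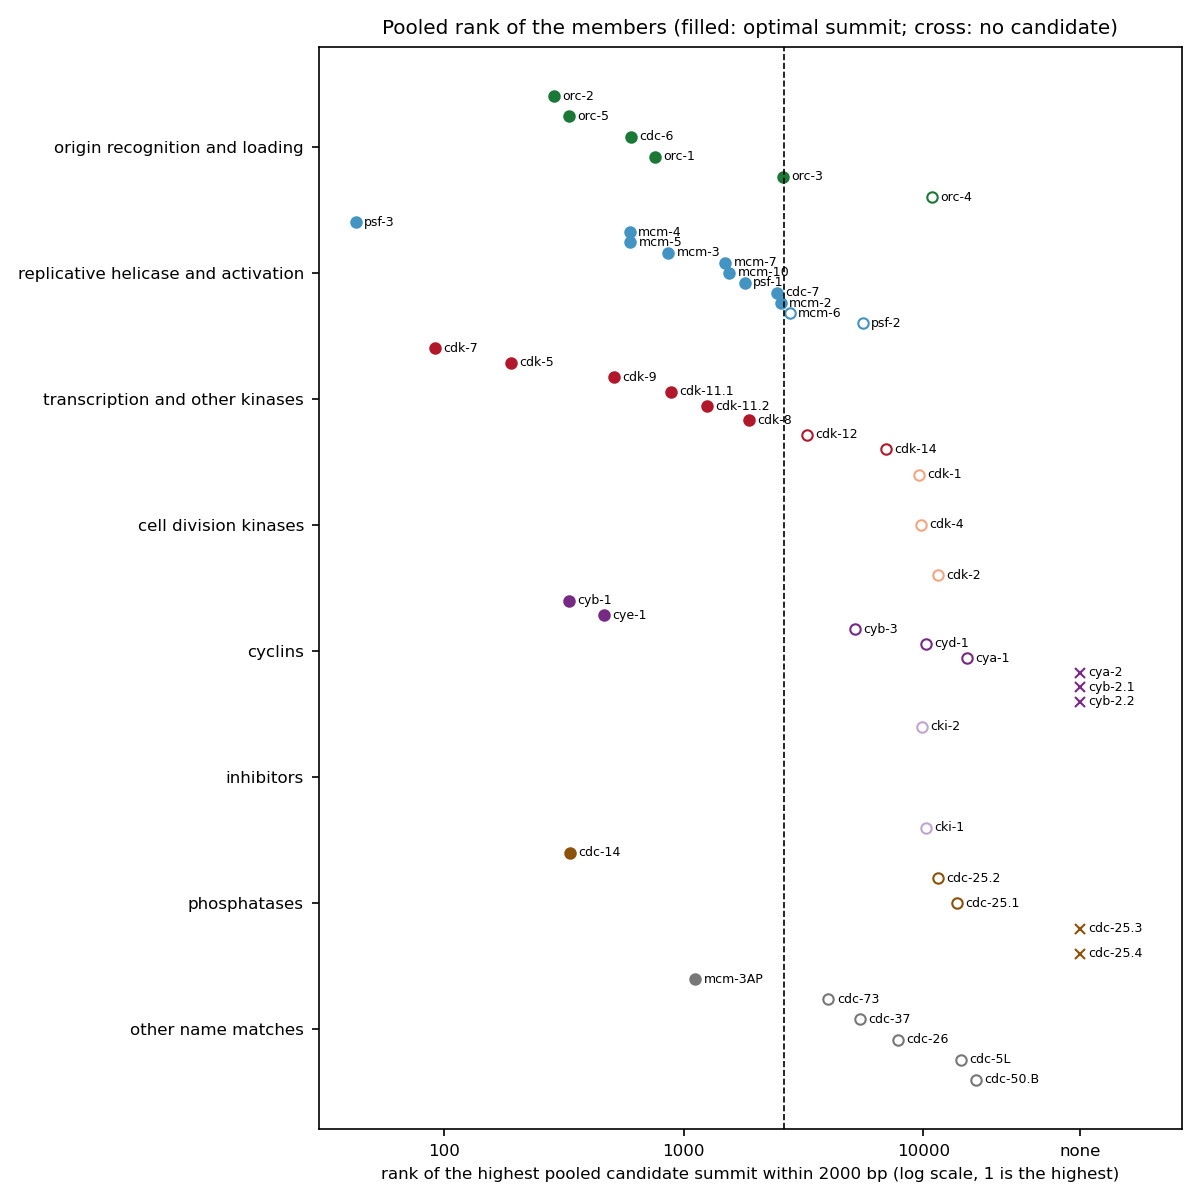
Rank of the highest pooled candidate summit within 2000 bp of the 5′ end (x axis, log scale, 1 is the highest) of each member except 1 that is not drawn, by role. Filled points have an optimal summit, open points only a candidate, crosses none, and the dashed line marks rank 2631. Most replication and transcription kinase genes lie to the left of the line, and the 3 division kinases lie between ranks 9585 and 11528.

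Other genes of these processes were taken from a list written from general knowledge with results of these data known. Of 67 such genes, 24 (35.8%) had an optimal summit within 2000 bp. Genes of the replication fork and of initiation held 14 of 26: pcn-1, rfc-1, rfc-3, rfc-4, pri-2, pole-1, pole-2, lig-1, crn-1, sld-2, gmn-1, ctf-4, tim-1 and tipn-1. The highest were at ctf-4 (rank 34 of the optimal list, 141 bp upstream), which encodes a fork protein, at tim-1 (rank 86, 250 bp upstream), a Timeless homologue, and at rfc-4 (rank 125, 155 bp upstream), a subunit of the clamp loader. At pcn-1, the sliding clamp PCNA, the summit lay 224 bp upstream at rank 479. The summits of ctf-4 and tim-1 lay nearer to the 5′ end of another gene, as did those of rfc-1, rfc-3, pole-2 and gmn-1. Genes of the ubiquitin ligases that degrade cycle proteins held 5 of 20, mitotic and checkpoint kinases and their partners 3 of 13 (air-2, wee-1.3 and chk-1), and cyclins and kinases under other names 2 of 8 (cyl-1 and ccnk-1). These last 3 groups stood at 25%, 23.1% and 25%, and the replication genes at 53.8%. When each summit was given only to the gene with the nearest 5′ end, 16 of the 67 kept one, against 9.33% of all genes.

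**Figure D2:**
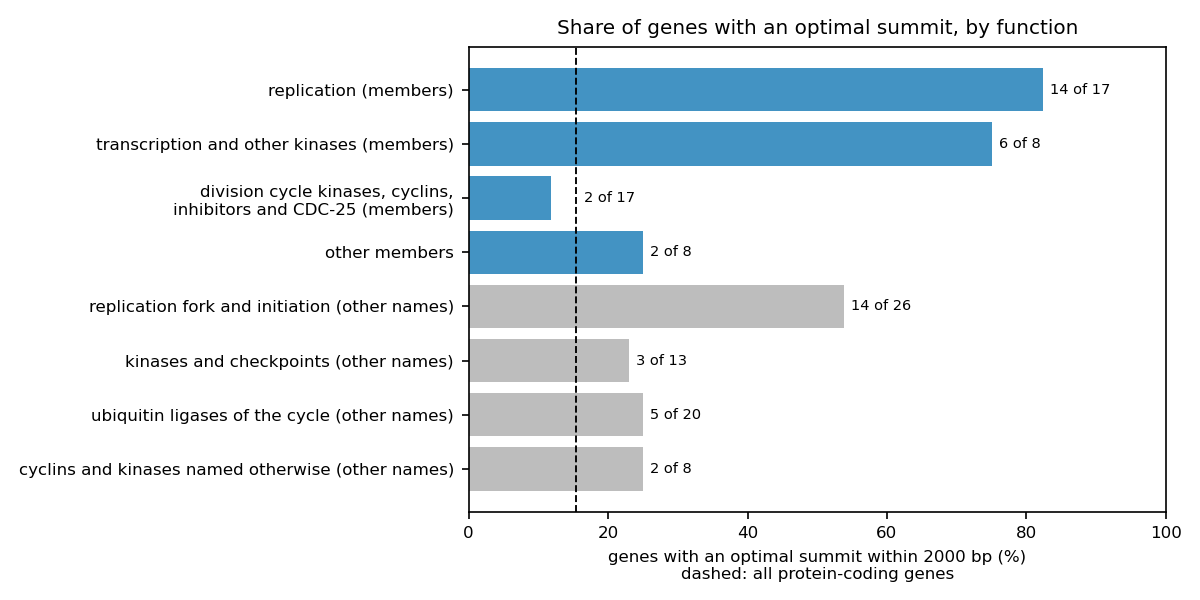
Percentage of genes with an optimal summit within 2000 bp of the 5′ end (x axis), for the members in blue and for other genes of the same processes in grey. The dashed line is the 15.4% of all protein-coding genes; replication members reach 14 of 17 and division cycle members 2 of 17.

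In the ORC group, orc-1, orc-2, orc-3, orc-5 and cdc-6 had an optimal summit, and orc-4 had none. The peak of orc-2 (II 10872620 to 10872869, rank 288, pooled signal 69.1) lay 1186 bp upstream of orc-2, and only 134 bp upstream of both cyn-4, a cyclophilin gene, and copz-1, which ends 135 bp before orc-2 on the same strand. The peak of orc-5 (IV 10734602 to 10734851, rank 333, signal 65.7) lay 139 bp upstream of orc-5 and 489 bp upstream of the divergent cyclin gene cyb-1, so it counts for both. At cdc-6 the summit (I 4270440 to 4270689, rank 605) lay 278 bp upstream, nearer to the divergent gene acin-1. The summit of orc-1 (III 10642852 to 10643101, rank 759) lay 152 bp upstream, between orc-1 and the divergent gene dhs-11. By contrast orc-3 (III 1207938 to 1208187, 70 bp upstream) was just inside the list at rank 2600. The gene orc-4 begins 112 bp after orc-1 on the same strand, and its highest candidate ranked 10865.

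Among the 6 genes of the MCM ring, mcm-2, mcm-3, mcm-4, mcm-5 and mcm-7 had an optimal summit, all between 170 and 263 bp upstream. Their pooled signals were 52.8 at mcm-4 (I 2321862 to 2322111, rank 595), 52.7 at mcm-5 (III 4291349 to 4291598, rank 598) and 45.2 at mcm-3 (V 15059646 to 15059895, rank 862). Lower values stood at mcm-7 (V 4346865 to 4347114, signal 33.98, rank 1492) and mcm-2 (II 12006763 to 12007012, signal 24.1, rank 2549). The remaining gene of the ring, mcm-6, fell just outside: its candidate 221 bp upstream ranked 2774 with a signal of 22.6, against a lowest optimal signal of 23.5. So mcm-2 and mcm-6 lie close together in the pooled list on either side of the authors' threshold. The replicates ranked them in opposite orders: the highest candidate of mcm-2 stood at 4513 in replicate 1 and 1784 in replicate 2, and that of mcm-6 at 2392 and 5616.

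Of the genes that activate the helicase, mcm-10 had a summit 350 bp upstream (III 11317095 to 11317344, rank 1552), inside an intron of teg-1, and psf-1 had one 137 bp upstream (II 9968411 to 9968660, rank 1799). At cdc-7 there were 2 low summits, 141 bp upstream (rank 2451) and 1284 bp upstream (rank 2501). The highest peak of all members was counted for psf-3 (I 535433 to 535497, rank 43, signal 117), but it lay 1009 bp downstream of the 5′ end of psf-3, beyond the end of that gene and 327 bp upstream of icd-2. That peak is 65 bp wide, while 2618 of the 2631 optimal peaks are 250 bp wide. The last of these genes, psf-2, had only a candidate of rank 5599.

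Among the transcription and other kinases, cdk-7, the kinase of the general factor TFIIH that also activates other CDKs, had the highest peak near its own 5′ end (I 2291133 to 2291382, 53 bp upstream, rank 92, signal 97.6), and a second of rank 2552. The neuronal kinase gene cdk-5 had a peak 65 bp upstream (III 13466282 to 13466531, rank 191, signal 78.7), in an intron of the overlapping gene kel-3. A further cdk-5 summit 1156 bp downstream of its 5′ end (rank 372) lay in introns of both genes and nearer to kel-3. The elongation kinase gene cdk-9 had a summit 161 bp upstream (I 11323241 to 11323490, rank 514), shared with the divergent hexokinase gene hxk-2 at 256 bp. Summits lay 25 bp upstream of cdk-11.1 (II 7699085 to 7699334, rank 885) and 164 bp upstream of cdk-11.2 (X 10419804 to 10420053, rank 1250). At cdk-8, the kinase of the Mediator complex, the summit lay 12 bp upstream (I 8702329 to 8702578, rank 1870). The genes cdk-12 and cdk-14 had candidates of rank 3266 and 6974 only.

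The division kinases had only low candidates: rank 9585 for cdk-1, 9743 for cdk-4 and 11528 for cdk-2, of 30000 in the pooled list. The inhibitor genes cki-1 and cki-2 stood at 10236 and 9873. Of the cyclins, cyb-1 shares the peak of orc-5. At cye-1, cyclin E, a summit lay 976 bp downstream of the 5′ end (I 6781650 to 6781899, rank 467, signal 58.7), in an intron and no farther than 100 bp from an annotated small RNA gene. It was the only 1 of the members' 27 distinct summits placed so, beside 7.07% of all optimal summits. The highest candidates of cyb-3, cyd-1 and cya-1 ranked 5177, 10250 and 15251. No pooled candidate lay within 2000 bp of cya-2, cyb-2.1, cyb-2.2, cdc-25.3 or cdc-25.4, and those of cdc-25.1 and cdc-25.2 ranked 13761 and 11556. The genes cyb-2.1 and cyb-2.2 are close copies, where reads may not be placed uniquely. How the authors treated such reads is not given in the sources used here, and their part in the missing candidates was not tested. The phosphatase gene cdc-14 differed from cdc-25, with a summit 350 bp upstream (II 5593652 to 5593901, rank 336, signal 65.3) and another 973 bp upstream at rank 1589, nearer to the divergent gene ttc-4.

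Of the 7 genes in none of the roles above, mcm-3AP had an optimal summit, 1591 bp upstream (IV 7946956 to 7947205, rank 1121). It lay 256 bp upstream of czw-1, a gene of the Zw10 family of kinetochore proteins. The highest candidates of cdc-73, cdc-37 and cdc-26 ranked 4020, 5428 and 7857, and those of cdc-5L and cdc-50.B ranked 14370 and 16544. Apart from mcm-6 at 2774, the members that came nearest to the list from outside were cdk-12 at 3266, cdc-73 at 4020, cyb-3 at 5177 and cdc-37 at 5428. On the inner side, the lowest were orc-3 at 2600, mcm-2 at 2549 and cdc-7 at 2451. No gap in rank separates these groups.

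Member summits lay close to and upstream of the 5′ end. Of the 24 members with an optimal summit, 22 had the closest 1 upstream, with a median position of -162.5 bp, against -245 bp for the 3066 genes of the whole set. Within 500 bp of the 5′ end, 20 of the 50 members had a summit, against 8.99% of all genes, and all 20 lay upstream (8.32% of all genes had one 1 to 500 bp upstream). If each summit was given only to the gene with the nearest 5′ end, 17 of the 50 members kept one, against 9.33% of all genes. By group, the count fell from 14 to 9 of 17 for the replication genes, a change of more than 1.5 times, and stayed at 6 of 8 for the transcription and other kinases. The division cycle genes kept 1 of 17. The members that lost their summit by this rule were cdc-6, cyb-1, mcm-3, mcm-3AP, orc-1, orc-2 and psf-3. At mcm-3 the neighbour C25D7.15 starts 37 bp from the summit, and mcm-3 itself 172 bp from it. The peak lists do not show which of 2 neighbouring genes a site serves.

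Divergent neighbours were common among the members. A gene on the opposite strand started within 1000 bp upstream of 17 of the 50 members (34%), against 17.7% of all protein-coding genes. Of these 17 members, 11 had an optimal summit (64.7%, against 31.2% of all genes with such a neighbour). Without such a neighbour, 13 of 33 members had one (39.4%, against 11.9%). The members' share was the higher in both arrangements, and the part of divergent neighbours in it was not tested.

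**Figure D3:**
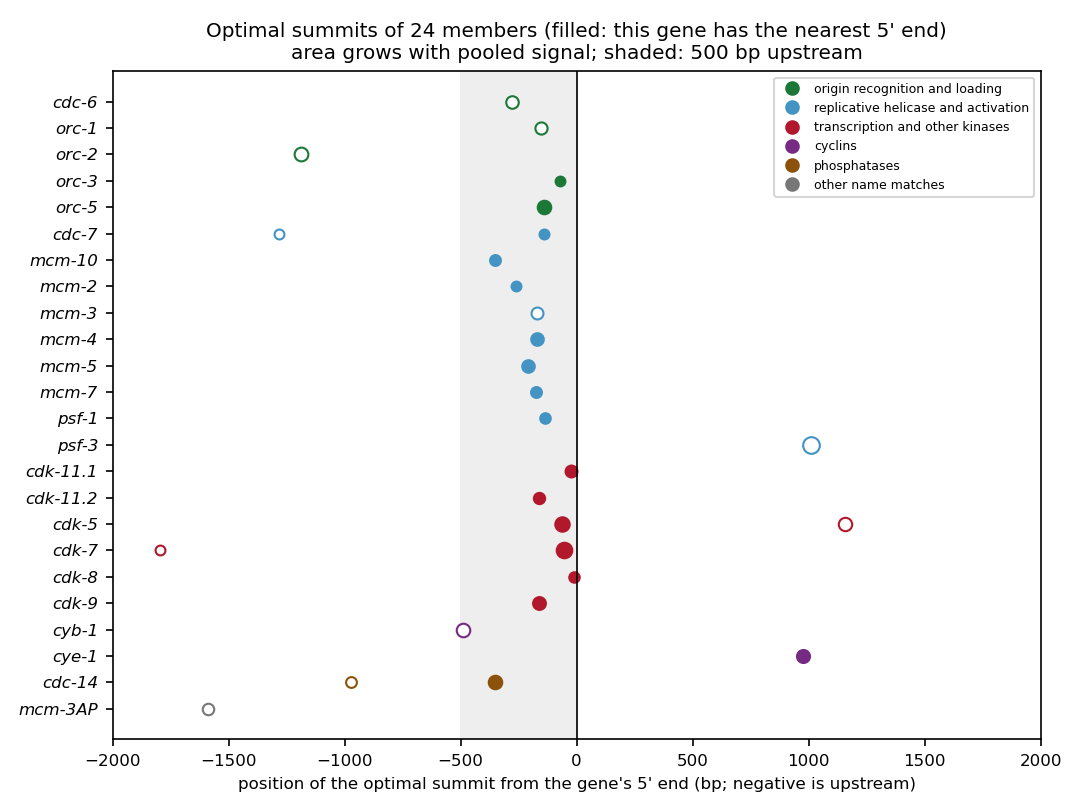
Position of each optimal summit relative to the 5′ end of its member gene (x axis, bp, negative is upstream), with point size growing with pooled signal. Filled points mark summits to which that member has the nearest 5′ end, and the shaded band is the 500 bp upstream; 20 of the 24 genes have a summit in the band.

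The lists of candidate peaks are far less selective. They hold peaks and background, and a pooled candidate lay within 2000 bp of 45 of the 50 members, against 68.6% of all genes. Candidates of both replicates lay that near to 41 members, against 50.5% of all genes. Within the pooled list the members differed from all genes in rank. The highest candidate of the 45 had a median rank of 2549, against 9433 over the 13693 genes with a candidate.

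The replicates ordered the members differently. For optimal peaks found in both replicates' lists (2566 of them), each replicate's signal was turned into a percentile among those peaks, with 100 the highest. At cdk-7 the summit 53 bp upstream stood at percentile 86.4 in replicate 1 and 98.8 in replicate 2, and the highest cdk-5 summit at 85.3 and 95.8. The psf-3 peak stood at 97.6 and 98.2, the cdc-14 peak 350 bp upstream at 91.6 and 93.6, and the cdk-9 peak at 77.3 and 78.9. These 5 were high in both. At mcm-4 the percentiles were 87.7 and 4.52, at mcm-5 83.1 and 35.8, at mcm-3 78.3 and 35.2, and at mcm-10 63.4 and 12.8. The shared orc-5 and cyb-1 peak stood at 94.4 and 29.0, and that of cdc-6 at 92.7 and 25.07. All 6 stood far higher in replicate 1 than in replicate 2. Only mcm-2 (5.50 and 40.9), orc-3 (5.38 and 33.2), orc-1 (56.8 and 68.9), psf-3 and the cdc-7 summit 1284 bp upstream (14.1 and 50.1) went the other way among replication genes.

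Over the 15 replication summits the median percentile was 63.4 in replicate 1 and 33.2 in replicate 2, and 10 were higher in replicate 1. Over the 7 kinase summits found in both lists the medians were 77.3 and 78.9, and 2 were higher in replicate 1. By the construction of the percentile, the median over all 2566 peaks is 50 in each, and replicate 1 was the higher in 51.4% of them. Over optimal summits within 500 bp of any gene's 5′ end, the medians were 61.5 in replicate 1 and 48.2 in replicate 2. Replicate 1 was the higher in 61.8% of those found in both lists, so some lean to replicate 1 is shared by summits near 5′ ends. The peak of cdk-8 had no overlapping peak in replicate 2. With the 2631 highest peaks of 1 replicate in place of the optimal list, 23 members had a summit in replicate 1 (without replicate 2) and 16 in replicate 2 (without replicate 1), and 14 were common to both, 60.9% of the first and 87.5% of the second. Over all genes the shares were 15.8% in replicate 1 and 13.5% in replicate 2. Of the 27 distinct member summits, 13 (48.1%) belonged to peaks that matched one of the 2631 highest in both replicates, against 1505 (57.2%) of all optimal peaks. For the replication genes these counts were 13 and 9 of 17, so the 14 of the optimal list fell by more than 1.5 times without replicate 1. The kinase genes had 6 and 4 of 8, and the division cycle genes 2 and 2 of 17. The depth of the replicates is unknown because the files give no read counts, and its part in these differences was not tested.

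**Figure D4:**
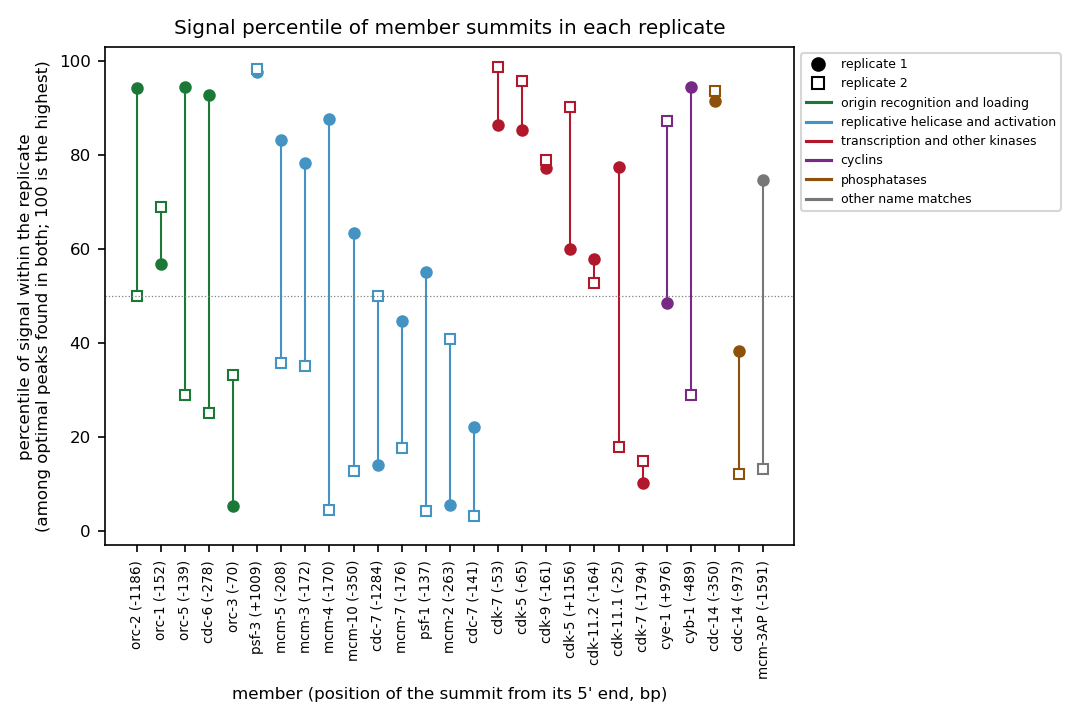
Percentile of signal of each member summit (y axis, 100 is the highest of the optimal peaks found in both replicates) in replicate 1 (filled circles) and replicate 2 (open squares), joined by a line and grouped by role. The summits of mcm-4, orc-5 and cdc-6 fall far in replicate 2, while the highest summits of cdk-7, cdk-5 and cdc-14 are high in both.

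Forkhead letters were frequent at the members' summits. TGTTTAC or TGTTTGC lay within 50 bp of 10 of the 27 distinct summits (37.04%), against 10.6% of all 2631. For summits within 500 bp of a 5′ end the shares were 8 of 19 (42.1%) and 15.1%. TGTTTAC alone was found at 1 member summit, that of mcm-3, so nearly all matches were TGTTTGC. The 10 belonged to cdc-7, cdk-8, cdk-11.1, cdk-11.2, cye-1, mcm-3, mcm-3AP, mcm-5, mcm-10 and orc-1. Those of cdk-11.1, cdk-11.2 and mcm-3AP lie in a shared run of 14 bases. In the assembly, 766 of its 767 copies are marked as repeated sequence, so the 10 are not all separate kinds of site. The 5 highest member peaks by rank, those of psf-3, cdk-7, cdk-5, orc-2 and orc-5, had no match in these windows.

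The same letters were also counted from the genes. In the 300 bases upstream of the 5′ end, a search added after the data were seen, 10 of the 24 members with an optimal summit had TGTTTAC or TGTTTGC (41.7%), and none of the 26 members without a summit did. Over all protein-coding genes the share was 12.2%, and over those with an optimal summit 16.2%. These 10 were not the same genes as those with a match at the summit. The letters upstream of cdc-6, cdk-5 and psf-3 lay beyond 50 bp from their optimal summits. Conversely, cye-1, mcm-3AP and mcm-10 had a match at the summit but none in the 300 bases upstream. The E2F forms, also chosen after the data were seen, were split otherwise: 7 of the 24 members with a summit and 6 of the 26 without one had them upstream (29.2% and 23.1%), against 4.997% of all genes. The members without a summit but with E2F letters were cdc-25.1, cdc-25.2, cdk-2, cki-2, cyd-1 and mcm-6. Within 100 bp of the summit, E2F forms lay at 6 of the 27 member summits (22.2%), against 7.22% of all optimal summits. All 6 belonged to replication genes: cdc-7, mcm-3, mcm-4, mcm-5, mcm-7 and orc-1. A match is a description of letters, not a shown site.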

How the data were processed

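The authors deposited ce11 peak lists in narrowPeak layout for each replicate, for both pooled, and for the pooled peaks that passed their reproducibility threshold (the optimal list), as the deposited notes describe them. Which aligner, caller and threshold were used is not given in the sources used here. The signal column is the deposited signal of the authors' peak caller and was used only to rank peaks within 1 list. The deposited −log10 q-value was equal for all optimal peaks (3.72) and was not used. A summit is column 2 plus column 10, counted from 1. The optimal list equals the 2631 highest pooled peaks.

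Gene models were those of Ensembl release 115 (WBcel235, the ce11 assembly). A summit counted for every protein-coding gene whose 5′ end lay within 2000 bp. Sequence came from the RefSeq copy of WBcel235. The rule named all members with an optimal summit, the 5 highest without, and all with no candidate. The other members are named to complete their role groups, with their values seen. The distance counts were checked on simulated summits. The values of 1 member are not reported here. Members and lists were chosen with earlier results of these data known. One name of the other list, sld-3, was not found in the gene models used. Python 3.11.15, pandas 2.3.3 and SciPy 1.17.1 were used. Intervals cover counting error only, and the files give no depth.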

Additional observations from a re-analysis of the deposited data

How the results depend on the processing

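The count of members with an optimal summit (24) stayed within 1.5 times under all 9 alternatives. It was 21 with a limit of 1000 bp, 20 with 500 bp, 17 with the nearest 5′ end only, 17 in the upper 1315 optimal peaks, 24 with peak intervals, 23 without peaks near short RNA genes, 24 with the 5′ ends of all transcripts, and 16 to 23 with 1 replicate left out. Without replicate 1 the genes lost were cdc-6, cdk-8, cdk-11.1, mcm-3AP, mcm-4, mcm-7, mcm-10 and psf-1, and the share was 2.36 times that of all genes. Without replicate 2 mcm-2 and orc-3 were lost and mcm-6 was gained. The share of all genes, 15.4% in the main count, also fell under the stricter settings. It was 11.3% at 1000 bp, 8.99% at 500 bp, 9.33% with the nearest 5′ end only and 9.17% in the upper 1315 peaks. For the other genes of these processes (24) the counts ran from 16 to 27. Pooled candidates lay near 35 to 39 members under the 4 alternatives, against 45. Over all genes the shares were 35.7% to 57.1%, against 68.6%. Candidates of both replicates lay near 27 members with a limit of 500 bp, against 41, because the limit admits fewer summits. The share of all genes was 19.7% there, against 50.5%. The share of member summits with a forkhead match was 3.70% with TGTTTAC alone (2.24% of all optimal summits), 51.9% with a window of 100 bp (15.1% of all), and 35.3% without replicate 1 and 40.0% without replicate 2 (8.25% and 11.0% of all). Each share rests on few summits. No paired analysis was possible because there is a single group.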

Other observations

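The forkhead matches of the members fell into longer shared runs, noticed after the data were seen. The summits of cdk-11.1, cdk-11.2 and mcm-3AP share the 14 bases GTGTTTGCGTACTT, and cdk-11.1 and cdk-11.2 share 18 around them. This run occurs 767 times in the nuclear chromosomes of the RefSeq assembly, counted on both strands, and 766 of the copies lie in sequence that the assembly marks as repeated (lower case), as 35.7% of all bases do. Of the 767 copies, 13 (1.69%) lay within 50 bp of an optimal summit and 31 (4.04%) within 50 bp of a pooled candidate summit. Reads from repeated sequence may not be placed uniquely, and its part in these peaks was not tested.

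The summits of mcm-5 and mcm-10 share another extension, TGTTTGCGGA. It occurs 389 times, and 44 copies (11.3%) lay within 50 bp of an optimal summit, with 49.4% of the copies in sequence marked as repeated. The member cdk-8 is also among the genes nearest to those 44 summits.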
